A study of Macaca mulatta with 27 samples.

Results

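The transcripts described here are those of the Hippo pathway effectors and of classical YAP target genes, in pluripotent stem cells (PSCs) of the rhesus macaque. Members were found by gene symbol. The list of 10 symbols holds the coactivators YAP1 and WWTR1 (also called TAZ), the transcription factors TEAD1, TEAD2, TEAD3 and TEAD4, the target genes CTGF, CYR61 and ANKRD1, and AMOTL2. Of these, 9 were found among the 17967 gene symbols of the count tables, CTGF and CYR61 under these older names, and AMOTL2 was not analysed here. All 9 passed the filter on low counts in every comparison.

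RNA was sequenced from 27 libraries, 6 of primed cells and 3 of cells cultured under each of 7 protocols intended to bring PSCs from the primed to the naive state. The labels call the cells rhesus ESCs, primed or naive. They give the primed libraries as separate sets of 3 that reuse the same replicate numbers. According to the study's methods, all were derived from LyonES-tGFP-(S3), a clonal line that carries a tauGFP transgene under the ubiquitous CAG promoter and a lentiviral STAT3-ERT2, a STAT3 that tamoxifen activates. The results therefore describe 1 clone, and the labels do not say whether replicates came from separate cultures, so that p-values measure the spread between these libraries, which may be technical. Tamoxifen and LIF were given in TL2i, together with inhibitors of MEK and GSK3β, and in TL-CDK8i, where the inhibitor of CDK8 and CDK19 named CNIO-47799 took the place of the other inhibitors. E-NHSM, NHSM-v, 4i/L/b, t2iLGöY and LCDM (EPS) are published culture media, used without tamoxifen, whose composition the labels do not give. The primed cells are the common control, so the comparisons with them share these 6 libraries.

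The Hippo pathway is a kinase cascade that restrains YAP1 and WWTR1. The kinases STK3 and STK4 activate LATS1 and LATS2, which phosphorylate both coactivators and so keep them in the cytoplasm or direct them to degradation. When the cascade is inactive, as on stiff substrates or in spread cells with actin stress fibres, YAP1 and WWTR1 enter the nucleus, bind TEAD factors and raise the transcription of genes such as CTGF, CYR61 and ANKRD1. In the preimplantation embryo the pathway separates the outer cells, in which YAP1 and TEAD4 promote trophectoderm genes, from the inner cell mass. Transcript levels do not show where the YAP1 protein is.

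The total per library was 7111886 to 20760914 counts (median 12201171). A floor of 3 counts corresponds to 0.145 to 0.422 CPM, that is, counts scaled to a common library total. Such floors cover counting error only. CPM were scaled by the TMM factors of edgeR over all libraries, and no transcript lengths were at hand, so levels are compared between groups for one gene and not between genes. The pluripotency marker POU5F1 met the label in primed cells, at 1182 ± 67.0 CPM (SD, n = 6), and in E-NHSM cells, at 1365 ± 31.7 (n = 3). Not all such markers kept their primed level in E-NHSM cells. Of 7, 3 were called higher and 2 lower (11.1% and 15.1% of all genes tested). The 2 lower ones were PRDM14 and TDGF1, which were called lower in all 7 protocols. In TL-CDK8i cells POU5F1 was at 502 ± 95.1 CPM. It was at 6.44 ± 1.28 CPM in TL2i cells, 3.16 ± 2.52 in LCDM (EPS) cells and 1.17 or less on average in t2iLGöY, 4i/L/b and NHSM-v cells, so in these 5 groups the defining marker of the labelled cell type was almost absent. NANOG averaged 0.317 CPM or less in the same 5 groups, against 134 ± 19.4 in primed cells. SOX2 was less reduced, at 74.6 CPM or more on average. It was still called lower than in primed cells in TL2i, 4i/L/b, NHSM-v, t2iLGöY and TL-CDK8i cells (log2 fold change −1.91 at the lowest). The columns of primed cells carry letters that could not be matched to the sets of the labels, J and K with 3 libraries each. Between them, 3.73% of genes tested were called by edgeR's quasi-likelihood test (2.03% higher and 1.7% lower in K), among them YAP1 and WWTR1, which were 1.28 and 1.47 times as high in K (adjusted p = 0.01 and 0.032), and CYR61, which was at 0.617 of its J level in K (adjusted p = 2.6e-05).

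Each protocol was compared with primed cells by edgeR's quasi-likelihood test, to learn which effectors and targets of the pathway differ after the change of medium. A gene was called when its Benjamini-Hochberg adjusted p over all genes tested was under 0.05. Over the 63 tests of 9 genes in 7 protocols, 13 were called higher, 36 lower and 14 not called. In E-NHSM cells 6 of the 9 genes fell and 3 did not pass, where 26.2% of all genes tested were called, 11.1% higher and 15.1% lower. In TL-CDK8i cells 4 rose and 4 fell (46.1% of all genes called, 22.3% higher and 23.8% lower). TL2i cells had 1 gene higher and 4 lower (50.7%, 25.6% higher and 25.2% lower), and 4i/L/b cells 4 higher and 3 lower (55.6%, 26.6% higher and 29% lower). In NHSM-v cells 2 rose and 4 fell (58.6%, 28% higher and 30.6% lower), and in t2iLGöY cells 2 rose and 7 fell (54.3%, 27.1% higher and 27.2% lower). LCDM (EPS) cells had 8 genes lower and 1 that did not pass (57.1%, 28.2% higher and 28.9% lower). The libraries of protocol and primed cells did not overlap for 5 of the 9 genes in E-NHSM (29.4% of all genes), 8 in TL-CDK8i (46.1%), 4 in TL2i (50.8%), 7 in 4i/L/b (55.7%), 5 in NHSM-v (55.6%), 7 in t2iLGöY (51.9%) and 7 in LCDM (EPS) cells (55.4%). The size and direction of the changes are described gene by gene. In bulk RNA, fewer cells that express a gene and less of its RNA per cell cannot be told apart.

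**Figure D1:**
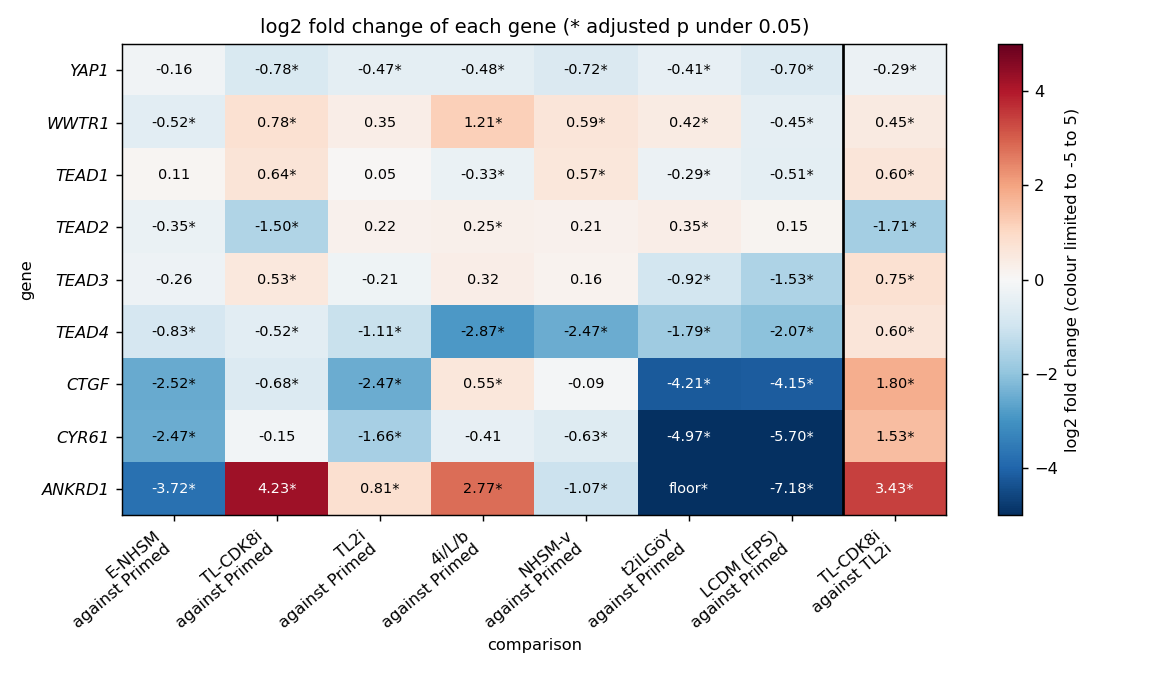
Heat map of log2 fold changes, with the 9 genes as rows and the comparisons as columns. Red is higher and blue lower in the first group, an asterisk marks an adjusted p under 0.05 and "floor" a gene at 0 counts in the 3 libraries of that protocol. TEAD4 and YAP1 are blue throughout against primed cells, whereas ANKRD1 runs from 4.23 in TL-CDK8i to its floor in t2iLGöY.

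YAP1, the coactivator restrained by LATS kinases, fell in 6 of the 7 protocols, by 1.33 to 1.71 times. In primed cells its level lay between 382 and 521 CPM with a median of 436. The 3 libraries of TL-CDK8i cells were at 269, 271 and 265 CPM, and those of LCDM (EPS) cells at 272, 269 and 278. All of them lay below the lowest primed library. NHSM-v cells had 270, 287 and 266 CPM of YAP1, TL2i cells 325, 307 and 328, and 4i/L/b cells 353, 301 and 324. The libraries of t2iLGöY cells were at 301, 322 and 356 CPM. In these groups, too, no library reached the primed range. Only E-NHSM cells, at 371, 401 and 424 CPM, overlapped with primed cells, and there the gene did not pass the test (log2 fold change −0.16, adjusted p = 0.27).

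The change of YAP1 was largest in TL-CDK8i cells, with a log2 fold change of −0.78 ± 0.11 (SE, adjusted p = 4.6e-05), and smallest among the called ones in t2iLGöY cells, at −0.41 ± 0.11 (adjusted p = 0.0055). Because the K libraries were higher than the J libraries, the size depended on which primed libraries were used. Against J alone the log2 fold change in t2iLGöY cells was −0.22 (adjusted p = 0.039) and against K alone −0.60 (adjusted p = 3.8e-05). Against K alone YAP1 was also lower in E-NHSM cells, at −0.32 (adjusted p = 0.00079), whereas against J alone it was at 0.04 (adjusted p = 0.73). In the other 6 protocols it was called lower against either set.

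WWTR1, the paralog of YAP1 under the same kinases, moved differently from it. It rose in 4 protocols and fell in 2. Its primed level ranged from 61.7 to 116 CPM, with a median of 91.3. Cells in 4i/L/b held 222, 194 and 225 CPM, a 2.31-fold rise (log2 fold change 1.21 ± 0.16, adjusted p = 2.1e-05). In TL-CDK8i cells it was at 140, 177 and 162 CPM (log2 fold change 0.78 ± 0.16, adjusted p = 0.0014). Both groups lay above each primed library. NHSM-v cells, at 134, 143 and 138 CPM, did so as well (log2 fold change 0.59, adjusted p = 0.0051).

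The remaining WWTR1 differences were smaller and lay within or at the edge of the primed range. In t2iLGöY cells WWTR1 was at 113, 119 and 122 CPM and was called higher (0.42, adjusted p = 0.042). TL2i cells had 113, 119 and 113 CPM, which did not pass (0.35, adjusted p = 0.089), although it did in one fit of all groups (0.015). E-NHSM cells were at 62.0, 60.5 and 66.2 CPM and LCDM (EPS) cells at 69.4, 61.8 and 65.9. Both groups lay beside the lowest primed library, J3, and under the other 5, and both were called lower (−0.52 and −0.45, adjusted p = 0.026 and 0.038). The 3 weaker calls each rested on single libraries. The E-NHSM call was lost without any one of primed K1, K2 and K3 or of the E-NHSM libraries (adjusted p = 0.056 to 0.11), and that of LCDM (EPS) without any one of primed K1, K2 and K3 or of its own libraries (0.07 to 0.14). The t2iLGöY call was lost without any one of primed J1, J2 and J3 or of its own libraries (0.06 to 0.12), while in TL2i cells WWTR1 was called without primed K3 (0.033). Against J alone WWTR1 was at −0.20 in E-NHSM and −0.12 in LCDM (EPS) cells (adjusted p = 0.32 and 0.47), and against K alone at 0.15 in t2iLGöY cells (adjusted p = 0.23). In TL2i cells WWTR1 was called higher against J alone (0.67, adjusted p = 0.0014).

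The balance of both coactivators was also followed as the ratio of their counts within each library, which does not depend on how libraries are scaled to each other. It weighs the transcripts by their lengths, so only its change between groups is read. Primed libraries held 4.51 to 6.20 YAP1 reads for each WWTR1 read. In 4i/L/b cells this number was 1.44 to 1.59, in TL-CDK8i cells 1.53 to 1.91 and in NHSM-v cells 1.93 to 2.02. It was 2.58 to 2.90 in TL2i cells and 2.68 to 2.92 in t2iLGöY cells. These 5 groups lay far under the primed libraries. On the log2 scale the ratio of WWTR1 to YAP1 rose from −2.32 ± 0.163 (SD, n = 6) in primed cells by 1.71 in 4i/L/b, 1.57 in TL-CDK8i, 1.33 in NHSM-v, 0.86 in t2iLGöY and 0.85 in TL2i cells. For each of them a two-sided exact permutation test gave p = 0.012, the smallest value that 6 libraries against 3 allow, and 0.017 after adjustment over the 7 protocols. LCDM (EPS) cells, at 3.91 to 4.36 YAP1 reads for each WWTR1 read and so also without overlap, differed by 0.27 (exact p = 0.036, adjusted 0.036). In E-NHSM cells the ratio moved the other way, by −0.34 (exact p = 0.024, adjusted 0.028), and overlapped with primed cells, with 5.98 to 6.62 YAP1 reads for each WWTR1 read. These last 2 differences lost their call without single libraries. For E-NHSM these were primed J1, J2, K1, K2 or K3 and E-NHSM 2 or 3 (adjusted exact permutation p up to 0.071), and for LCDM (EPS) primed J1, J2, K1 or K2 and each of its own libraries (up to 0.14).

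**Figure D2:**
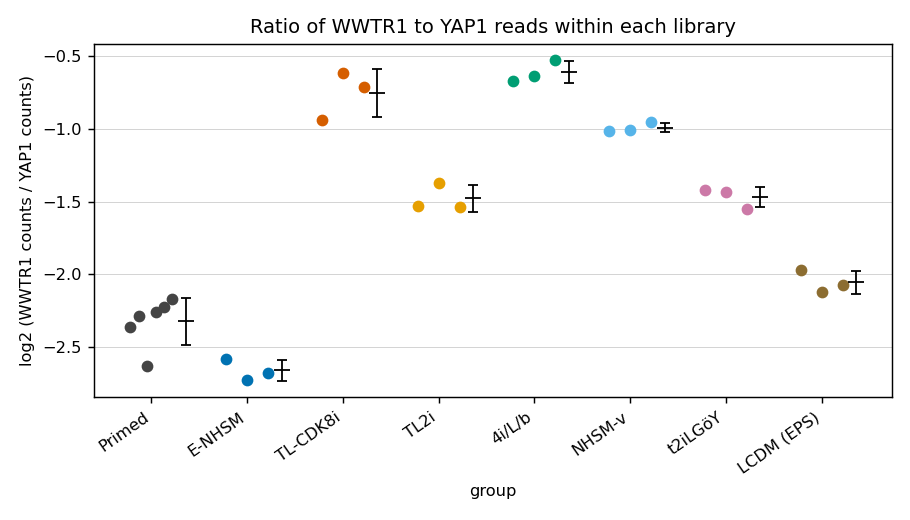
Ratio of WWTR1 to YAP1 counts in each library on a log2 axis, by group, with the mean and SD beside the points. The libraries of 4i/L/b and TL-CDK8i cells are highest, at means of −0.61 and −0.75, and E-NHSM cells are lowest, at −2.66.

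The 4 TEAD genes encode the DNA-binding partners of both coactivators. TEAD4, which is needed for the trophectoderm of the mouse embryo, fell in all 7 protocols. Primed libraries held 46.7 to 71.7 CPM of TEAD4 with a median of 54.5. Its level in 4i/L/b cells was 6.24, 8.26 and 9.24 CPM, 7.32 times lower (log2 fold change −2.87 ± 0.20, adjusted p = 4.2e-08). In NHSM-v cells it was at 8.91, 11.1 and 10.9 CPM (−2.47 ± 0.19, adjusted p = 3.3e-08). These are the lowest levels of this gene in the series. LCDM (EPS) cells followed with 14.4, 11.4 and 14.5 CPM (−2.07, adjusted p = 2.5e-07), and t2iLGöY cells with 17.5, 13.1 and 17.3 (−1.79, adjusted p = 1.3e-06). TL2i cells were at 26.0, 23.4 and 29.1 CPM (−1.11, adjusted p = 5.2e-05). E-NHSM cells, at 38.9, 33.0 and 23.3 CPM, and TL-CDK8i cells, at 41.6, 37.8 and 42.1, fell least (−0.83 and −0.52, adjusted p = 0.002 and 0.0098). No library of a protocol reached the primed range. The values against J or K alone were within 0.05 of those against all primed libraries on the log2 scale in each protocol, and only the TL-CDK8i call was lost when a library was left out, TL-CDK8i 2 (adjusted p = 0.059).

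TEAD2 stood out in TL-CDK8i cells. It was at 66.4, 51.8 and 42.0 CPM there, against 134 to 167 CPM with a median of 142 in primed cells, a log2 fold change of −1.50 ± 0.14 (adjusted p = 1.2e-06). In E-NHSM cells it was at 111, 121 and 114 CPM (−0.35, adjusted p = 0.016). Both lay below the primed libraries, and the E-NHSM call was lost without E-NHSM 1 or 3 (adjusted p = 0.076 to 0.09). In the other 5 protocols TEAD2 lay between 158 and 192 CPM. It was called higher in t2iLGöY cells, at 181, 192 and 173 CPM (0.35, adjusted p = 0.0066), and in 4i/L/b cells, at 183, 180 and 172 (0.25, adjusted p = 0.031), the latter call being lost without any of the 4i/L/b libraries (adjusted p = 0.055 to 0.089) and against J alone (0.055). In TL2i and NHSM-v cells it did not pass at 0.22 and 0.21 (adjusted p = 0.062 and 0.078). It was called without primed J3 in the former (0.017) and without primed J1, J3 or K1 in the latter (0.022 to 0.048). In both it was called against K alone (0.033 and 0.032) and in the fit of all groups (0.037 and 0.03).

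TEAD1 rose in the protocols of TL-CDK8i, at 505, 533 and 513 CPM (0.64 ± 0.08, adjusted p = 2.4e-05), and NHSM-v, at 448, 484 and 514 CPM (0.57 ± 0.09, adjusted p = 4.1e-05), above the primed range of 269 to 358 CPM with a median of 327. It fell in LCDM (EPS) cells, at 236, 212 and 227 CPM (−0.51, adjusted p = 0.00022). It fell less in 4i/L/b cells, at 271, 258 and 255 CPM (−0.33, adjusted p = 0.0051), and in t2iLGöY cells, at 280, 255 and 236 CPM (−0.29, adjusted p = 0.018), where the call was lost without t2iLGöY 2 or 3 (0.058 to 0.1) and against J alone (−0.20, adjusted p = 0.11). TL2i and E-NHSM cells, between 326 and 356 CPM, did not pass. TEAD1 thus moved up with WWTR1 in TL-CDK8i and NHSM-v cells but down in 4i/L/b cells, where WWTR1 was highest.

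TEAD3 fell in t2iLGöY cells, at 23.6, 18.2 and 22.0 CPM (−0.92 ± 0.18, adjusted p = 4e-04), and more in LCDM (EPS) cells, at 15.0, 13.3 and 14.2 CPM (−1.53 ± 0.16, adjusted p = 2.2e-06). In primed cells it was at 35.6 to 48.6 CPM with a median of 40.2. It rose in TL-CDK8i cells, at 58.7, 67.3 and 58.7 CPM (0.53 ± 0.13, adjusted p = 0.0044). These 3 groups did not overlap with primed cells. In 4i/L/b cells, at 49.0, 50.6 and 59.6 CPM, it also lay above each primed library but did not pass (0.32, adjusted p = 0.057). It was called there without primed K1 or K3 (0.017 to 0.035) and against J alone (0.49, adjusted p = 0.011). The fit of all groups also called it higher in these cells (adjusted p = 0.014). E-NHSM, TL2i and NHSM-v cells, between 30.2 and 48.9 CPM, did not pass, but TL2i cells were called lower against K alone (−0.35, adjusted p = 0.047).

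As a share of the reads of all 4 TEAD genes, TEAD1 held 56.7% ± 3.88 (SD, n = 6) in primed cells, TEAD2 26.0% ± 2.73, TEAD4 10.01% ± 1.64 and TEAD3 7.29% ± 0.578. Longer transcripts weigh more in such shares, so they too are read only between groups. In TL-CDK8i cells TEAD1 held 76.9% ± 1.57 (n = 3) and TEAD2 only 7.93% ± 1.79. In LCDM (EPS) and t2iLGöY cells TEAD2 held 39.1% ± 1.32 and 38.3% ± 2.04. TEAD4 fell to 1.45% ± 0.107 in NHSM-v and 1.58% ± 0.328 in 4i/L/b cells. The summed level of the 4 genes ran from 414 ± 16.5 CPM in LCDM (EPS) to 711 ± 34.9 in NHSM-v cells, with 563 ± 24.8 in primed cells. These shares are given as a description, without a test.

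**Figure D3:**
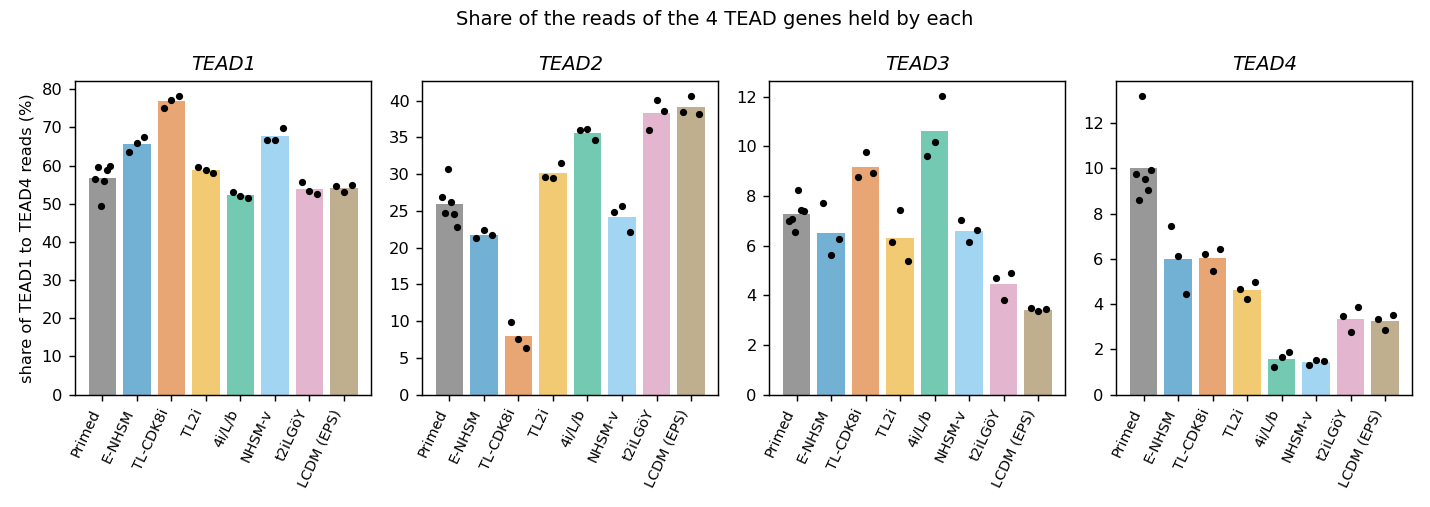
Share of the summed TEAD1 to TEAD4 reads held by each gene, in percent and with a separate axis per panel, by group. Bars are means and points are libraries. The TEAD2 bar of TL-CDK8i cells is at 7.93%, and TEAD4 bars of all protocols lie under the 10.01% of primed cells.

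CTGF and CYR61, which encode the secreted matricellular proteins CCN2 and CCN1, are the targets most often used to read YAP activity. Both fell to a small share of their primed level in t2iLGöY and LCDM (EPS) cells, and less far in E-NHSM and TL2i cells. CTGF lay between 1939 and 2363 CPM in primed cells, with a median of 2148. In t2iLGöY cells it was at 131, 120 and 91.0 CPM, 18.5 times lower (log2 fold change −4.21 ± 0.12, adjusted p = 1.3e-12), and in LCDM (EPS) cells at 135, 117 and 111 CPM, 17.8 times lower (−4.15 ± 0.09, adjusted p = 4.5e-13). In E-NHSM cells it was at 388, 411 and 333 CPM, 5.73 times lower (−2.52 ± 0.08, adjusted p = 4.1e-13). TL2i cells, at 362, 440 and 367 CPM, were 5.54 times lower (−2.47 ± 0.09, adjusted p = 1.3e-10). None of these 4 groups came near the primed range.

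In the other 3 protocols CTGF was abundant. TL-CDK8i cells, at 1280, 1421 and 1475 CPM, lay below the primed libraries (−0.68 ± 0.08, adjusted p = 5e-06). NHSM-v cells, at 1991, 2018 and 2164 CPM, overlapped with them and did not pass (−0.09, adjusted p = 0.25, 95% interval −0.23 to 0.05). CTGF was higher in 4i/L/b cells than in each primed library, at 2955, 3462 and 3349 CPM (0.55 ± 0.07, adjusted p = 1.9e-05). Against J or K alone, CTGF kept its direction and its side of the threshold in each protocol.

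CYR61 was also lowest in t2iLGöY and LCDM (EPS) cells. It was at 41.1, 37.6 and 33.0 CPM in t2iLGöY cells, 31.4 times lower than in primed cells (−4.97 ± 0.24, adjusted p = 2.3e-10). In LCDM (EPS) cells it was at 27.4, 25.1 and 16.2 CPM, 52.1 times lower (−5.70 ± 0.28, adjusted p = 6.9e-10). Primed libraries lay between 857 and 1602 CPM with a median of 1198. E-NHSM cells had 241, 228 and 181 CPM (−2.47 ± 0.19, adjusted p = 2.5e-08) and TL2i cells 338, 438 and 357 (−1.66 ± 0.20, adjusted p = 1.3e-05). These 4 groups lay below all primed libraries.

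NHSM-v cells, at 732, 812 and 804 CPM of CYR61, were called lower as well (−0.63 ± 0.18, adjusted p = 0.0063). TL-CDK8i cells, at 1031, 1131 and 1185 CPM, and 4i/L/b cells, at 817, 996 and 973, overlapped with primed cells and did not pass (−0.15 and −0.41, adjusted p = 0.52 and 0.078). For this gene the primed libraries form a higher J set, at 1383, 1438 and 1602 CPM, and a lower K set, at 1013, 875 and 857. Against J alone CYR61 was called lower in TL-CDK8i (−0.44, adjusted p = 0.0013) and 4i/L/b cells (−0.68, adjusted p = 0.00013). Against K alone it was called higher in TL-CDK8i cells (0.24, adjusted p = 0.036) and did not pass in 4i/L/b cells (adjusted p = 0.98). The gene was also called lower in 4i/L/b cells without primed K2 or K3 (0.039 to 0.046) and in the fit of all groups (0.049).

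ANKRD1, an ankyrin-repeat protein of the muscle sarcomere and nucleus whose promoter binds YAP and TEAD, had the widest range of the 9 genes. Primed libraries held 30.3 to 101 CPM, with a median of 40.2, and K1 alone reached the top of this range. In TL-CDK8i cells it was at 758, 1246 and 1005 CPM, an 18.7-fold rise (4.23 ± 0.29, adjusted p = 4.3e-08). It was at 352, 363 and 378 CPM in 4i/L/b cells, a 6.84-fold rise (2.77 ± 0.27, adjusted p = 1.4e-06). Both groups lay above every primed library.

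At the other end, ANKRD1 had 0 counts in the 3 libraries of t2iLGöY cells, at least 248-fold lower than in primed cells when the floor of 3 counts in each library is used. In LCDM (EPS) cells it had 0, 14 and 6 counts, equal to 0, 0.66 and 0.325 CPM (−7.18 ± 0.63, adjusted p = 2.9e-07). E-NHSM cells were at 5.18, 5.23 and 1.35 CPM, 13.1 times lower (−3.72 ± 0.44, adjusted p = 4.4e-06). The libraries of these 3 groups lay below all primed ones. TL2i cells, at 69.4, 114 and 89.0 CPM, and NHSM-v cells, at 33.7, 24.9 and 16.7, overlapped with primed cells. They were called higher (0.81, adjusted p = 0.036) and lower (−1.07, adjusted p = 0.016). The first call was lost without any one of primed J1, J2, J3 and K2 or TL2i 2 and 3 (adjusted p = 0.053 to 0.18) and against K alone (0.45, adjusted p = 0.19). The second was lost without NHSM-v 2 or 3 (0.05 to 0.094) and against J alone (−0.54, adjusted p = 0.099).

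**Figure D4:**
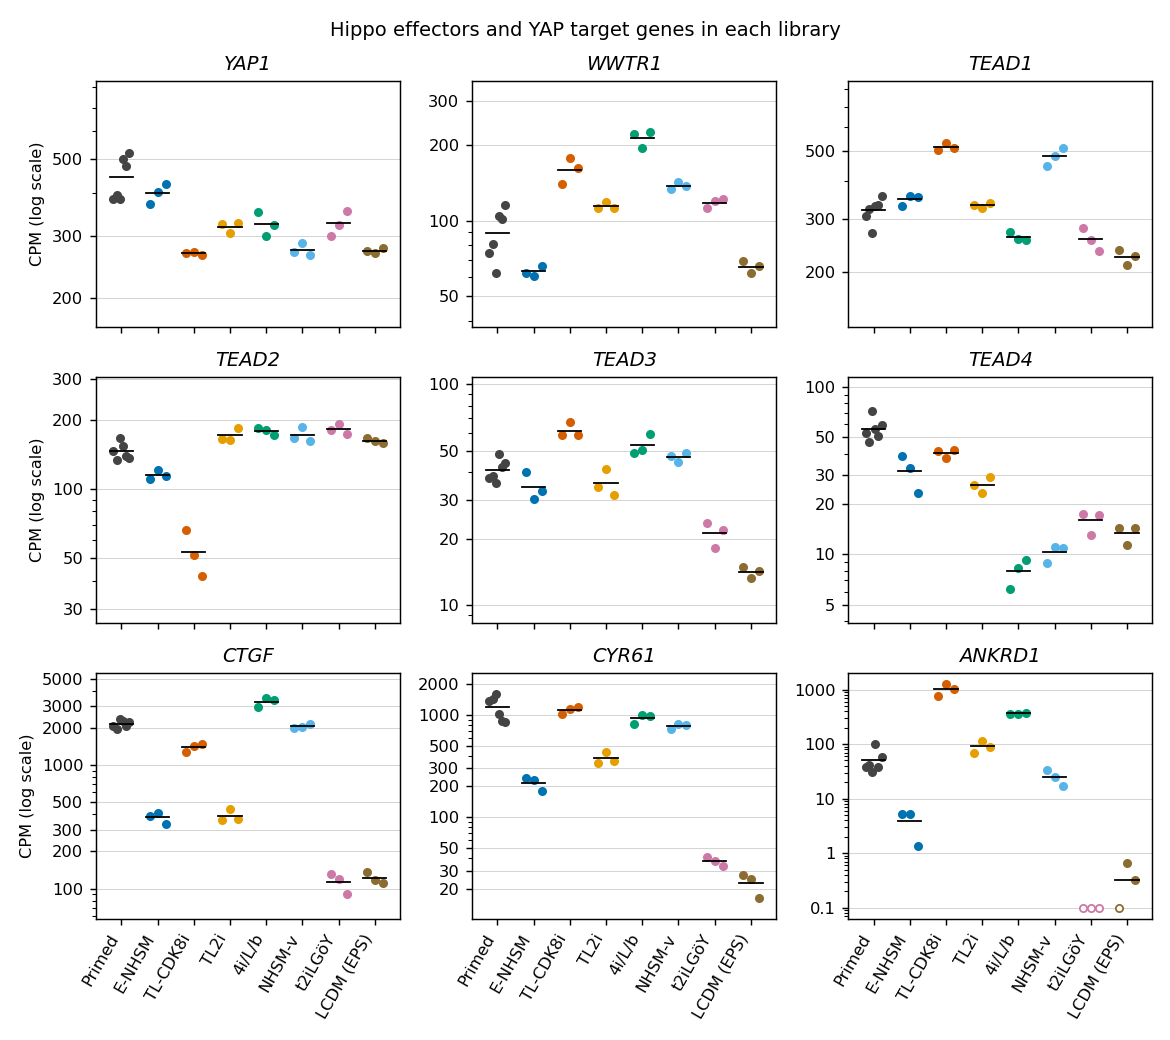
CPM of the 9 genes in each of the 27 libraries on log axes with a separate scale per gene. Points are libraries, lines are group means, and open circles at the bottom of the ANKRD1 panel are libraries with 0 counts. The 3 target genes are lowest in t2iLGöY and LCDM (EPS) cells, where CTGF is at or under 135 CPM and CYR61 at or under 41.1 CPM.

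The 3 target genes did not move as one. In TL-CDK8i cells ANKRD1 rose 18.7-fold while CTGF fell and CYR61 did not pass. In TL2i cells ANKRD1 was not below its primed range while CTGF and CYR61 fell by over 3 times. CTGF and ANKRD1 rose in 4i/L/b cells, and in NHSM-v cells ANKRD1 and CYR61 fell. Only in E-NHSM, t2iLGöY and LCDM (EPS) cells did all 3 fall. TL2i and t2iLGöY cells were close in both coactivators, with YAP1 at 320 ± 11.3 and 327 ± 27.3 CPM (SD, n = 3) and WWTR1 at 115 ± 3.52 and 118 ± 4.72 CPM, but had CTGF at 390 ± 43.6 and 114 ± 20.8 CPM. In one fit of all groups CTGF differed between them by 1.77 on the log2 scale (adjusted p = 7.6e-14), and YAP1 and WWTR1 did not pass (−0.03 and −0.04, 95% intervals −0.23 to 0.17 and −0.33 to 0.25, adjusted p = 0.84 and 0.86). The TEAD partners were not all alike. In the same fit TEAD1, TEAD3 and TEAD4 were higher in TL2i cells (0.37, 0.75 and 0.71, adjusted p = 0.00058, 0.00017 and 0.0034). TEAD2 did not pass (−0.09, adjusted p = 0.54).

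Both protocols with tamoxifen-activated STAT3 were compared directly, because they differ in their inhibitors. All 9 genes differed between TL-CDK8i and TL2i cells, 7 higher and 2 lower in TL-CDK8i cells, where 64.9% of all genes tested were called, 31.5% higher and 33.3% lower. The libraries of both groups did not overlap for any of the 9, as for 70.4% of all genes tested. ANKRD1 was 10.8 times as high in TL-CDK8i cells (3.43 ± 0.19, adjusted p = 3.8e-09), CTGF 3.49 times (1.80 ± 0.10, adjusted p = 5.8e-09) and CYR61 2.89 times (1.53 ± 0.11, adjusted p = 5.2e-08). TEAD2 was 3.27 times lower (−1.71 ± 0.14, adjusted p = 2.1e-07). TEAD1, TEAD3 and TEAD4 were higher, by 0.60, 0.75 and 0.60 on the log2 scale. WWTR1 was higher by 0.45 (adjusted p = 0.00096) and YAP1 lower (−0.29, adjusted p = 0.0082). The YAP1 call was lost without TL2i 3 (adjusted p = 0.056). Cell type markers differed between these groups as well. In TL-CDK8i cells 6 of 7 pluripotency markers were higher (31.5% of all genes), with a median log2 fold change of 6.24. Of 6 neural markers 5 were lower and 1 higher, and 3 of 3 endoderm markers were lower (33.3% of all genes lower). The parts of the inhibitors and of the cell types in the differences of the 9 genes were not tested.

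When the 8 groups were put in order of their mean level for each gene, 26 of the 63 pairs of neighbours differed in one edgeR fit of all groups. In that fit, 19.9% to 63.3% of all genes were called between a pair of groups, neighbours or not. ANKRD1 was the most finely graded, with 6 of 7 pairs apart, in the order TL-CDK8i, 4i/L/b, TL2i, primed, NHSM-v, E-NHSM, LCDM (EPS) and t2iLGöY, of which only the last pair could not be told apart. For CTGF 4 pairs differed. The order ran from 4i/L/b to primed and NHSM-v cells, which were alike within their spread, then TL-CDK8i, then TL2i and E-NHSM (adjusted p = 0.74), then LCDM (EPS) and t2iLGöY (adjusted p = 0.63). For CYR61 no step between neighbours was resolved from primed through TL-CDK8i and 4i/L/b to NHSM-v cells. Groups further apart in this run did differ, primed from NHSM-v (adjusted p = 0.0015) and 4i/L/b (0.049) and TL-CDK8i from NHSM-v cells (0.018). Below NHSM-v cells, TL2i, E-NHSM, t2iLGöY and LCDM (EPS) cells followed as separate steps. For YAP1 a single step was resolved, between E-NHSM cells and the t2iLGöY cells below them (adjusted p = 0.013). For WWTR1 4i/L/b cells stood above TL-CDK8i (adjusted p = 0.015), TL2i above primed (0.015) and primed above LCDM (EPS) cells (0.0023). The difference between TL2i and primed cells passed in this fit but not in that of both groups alone (adjusted p = 0.089). Each TEAD gene had 2 resolved steps. For TEAD2 these set primed cells above E-NHSM (adjusted p = 0.0057) and E-NHSM above TL-CDK8i cells (1.3e-09), and for TEAD4 primed above TL-CDK8i (0.018) and TL2i above t2iLGöY cells (0.0034).

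The kinases and scaffolds above YAP1 were followed as lists. Of the 7 genes of the core cassette, SAV1, the scaffold that joins both kinases, fell in 6 protocols, from 68.9 ± 10.9 CPM in primed cells to 30.2 ± 2.09 in LCDM (EPS) cells (−1.19 ± 0.15, adjusted p = 1.5e-05). LATS2, a kinase of YAP1 and itself a YAP target, fell in 4 protocols, most in LCDM (EPS) cells (−1.49 ± 0.20, adjusted p = 2.7e-05), and rose in 4i/L/b cells (0.67 ± 0.18, adjusted p = 0.0062). MOB1A, a coactivator of the LATS kinases, rose in 3 protocols and STK4 in 2. STK3 and LATS1 changed in 4 and 3 protocols, in both directions, and MOB1B lay between −0.57 and 0.56 without passing (adjusted p = 0.081 to 0.98). In number, 2 of the 7 genes were called in E-NHSM, TL2i, 4i/L/b and NHSM-v cells, where 26.2%, 50.7%, 55.6% and 58.6% of all genes were called. The count was 4 in t2iLGöY (54.3%), 5 in LCDM (EPS) (57.1%) and 6 in TL-CDK8i cells (46.1%).

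Among the 14 upstream activators and scaffolds, AMOT, an angiomotin that holds YAP1 at junctions and in the cytoplasm, rose in 6 protocols. It went from 25.7 ± 3.71 CPM in primed cells to 162 ± 6.86 in t2iLGöY (2.69 ± 0.13, adjusted p = 2.9e-10) and 159 ± 14.9 in TL2i cells (2.63 ± 0.13, adjusted p = 1.2e-09). Its paralog AMOTL1 behaved otherwise. It rose in TL-CDK8i, NHSM-v and 4i/L/b cells, by 1.10, 1.04 and 0.93, and fell in E-NHSM, LCDM (EPS) and t2iLGöY cells, by 1.69, 0.66 and 0.54 on the log2 scale. The giant cadherins FAT4 and DCHS1, which bind each other between cells, rose in 5 protocols each, FAT4 up to 192 ± 41.7 CPM in t2iLGöY and DCHS1 up to 576 ± 3.83 in NHSM-v cells, and fell in E-NHSM cells (−3.32 and −1.83). The kinase gene TAOK2 rose in 5 protocols, by at most 1.01, while TAOK3 fell in 4 and the scaffold gene WWC2 in 4.

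Of 9 genes whose products inhibit the cassette, SLMAP, a part of the phosphatase complex that acts on STK3 and STK4, fell in 5 protocols and rose in TL-CDK8i cells (0.52, adjusted p = 0.00034). LIMD1, a LIM protein that binds LATS kinases, fell in 4. WTIP, of the same family, rose in 4 and fell in E-NHSM cells, and STRN4 rose in 3 and fell in E-NHSM cells. The median log2 fold change of this list lay between −0.39 in E-NHSM and 0.11 in TL2i cells.

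The VGLL proteins bind TEAD factors in place of YAP1. VGLL4, which represses TEAD targets, rose in 6 protocols, from 64.1 ± 4.10 CPM in primed cells to 263 ± 14.9 in NHSM-v cells (2.01 ± 0.09, adjusted p = 8.1e-11), and fell in E-NHSM cells (−0.88 ± 0.13, adjusted p = 6.3e-05). VGLL3 rose in the same 6 protocols. It went from 19.2 ± 6.71 CPM to 479 ± 90.5 in TL-CDK8i (4.57 ± 0.22, adjusted p = 2.6e-09) and 324 ± 24.7 in NHSM-v cells (4.03 ± 0.21, adjusted p = 5.7e-10). VGLL1 and VGLL2 did not pass the filter in any comparison. Among the paralogs of CTGF and CYR61, WISP1 had counts in a single primed library, at 0.770 CPM, and rose in 6 protocols, to 106 ± 7.50 CPM in NHSM-v cells (adjusted p = 5.1e-10). NOV rose in NHSM-v and t2iLGöY cells, and WISP2 and WISP3 were not tested.

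A list of 18 other genes described as YAP targets moved in both directions. In TL-CDK8i cells 14 of 18 rose and 1 fell, with a median log2 fold change of 1.21, where 22.3% of all genes tested rose and 23.8% fell. In 4i/L/b cells 12 of 18 rose (26.6% of all genes), with a median of 0.85, and in NHSM-v cells 12 of 17 rose and 2 fell (28% and 30.6%), with a median of 1.03. In TL2i cells 9 of 17 rose (25.6%), with a median of 0.52. The direction was the opposite in E-NHSM cells, where 10 of 17 fell (15.1%) and the median was −1.37, and in LCDM (EPS) cells, where 3 rose and 10 fell (28.2% and 28.9%) and the median was −1.11. In t2iLGöY cells 6 rose and 8 fell (27.1% and 27.2%), with a median of −0.69. The median of all genes tested lay within 0.07 of 0 in each of these comparisons.

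Single genes of this list rose where CTGF and CYR61 fell. CCDC80, a matrix protein gene, rose in 6 protocols, among them t2iLGöY, where it went from 13.0 ± 8.23 CPM in primed cells to 237 ± 24.8 (4.26 ± 0.40, adjusted p = 3.9e-07). TGFB2, which encodes a ligand of the TGFβ family, also rose in 6, up to 438 ± 10.3 CPM in NHSM-v cells (5.68 ± 0.32, adjusted p = 9.2e-10). F3, or tissue factor, fell in 4 protocols, from 63.6 ± 25.5 CPM to 3.30 ± 1.05 in LCDM (EPS) cells (−4.27 ± 0.39, adjusted p = 4.8e-07) and to counts in a single library of t2iLGöY cells (adjusted p = 4.2e-07), and rose in TL-CDK8i cells (1.00 ± 0.26, adjusted p = 0.0056). AXL, a receptor kinase, rose in TL-CDK8i, TL2i, 4i/L/b and NHSM-v cells, by 1.68, 1.19, 2.03 and 2.50, and fell in the 3 protocols in which CTGF, CYR61 and ANKRD1 all fell.

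Genes of the contractile apparatus, which are driven by SRF and respond to the same actin signals, were followed because several of them are also counted as YAP targets. In LCDM (EPS) cells all 7 of the list fell (28.9% of all genes), with a median log2 fold change of −2.82, and in t2iLGöY cells 6 fell and 1 rose (27.2% and 27.1%), with a median of −1.66. In TL-CDK8i cells 6 of 7 rose (22.3%), with a median of 1.62, and in 4i/L/b cells 5 rose and 1 fell (26.6% and 29%), with a median of 0.78. NHSM-v cells had 4 higher and 1 lower (28% and 30.6%), with a median of 0.30. TL2i cells had 1 higher and 3 lower (25.6% and 25.2%), with a median of −0.01. In E-NHSM cells 5 fell and 2 did not pass (15.1% of all genes fell), with a median of −0.56. ACTA2, smooth-muscle actin, went from 43.0 ± 7.26 CPM in primed cells to 1380.1 ± 335 in TL-CDK8i (4.95 ± 0.15, adjusted p = 6e-11) and 1407 ± 43.0 in NHSM-v cells (5.01 ± 0.12, adjusted p = 2.3e-13). VCL, the focal adhesion protein vinculin, went from 1428 ± 155 CPM to 2817 ± 173 in TL-CDK8i (0.93 ± 0.08, adjusted p = 5.4e-07) and 202 ± 13.8 in LCDM (EPS) cells (−2.82 ± 0.10, adjusted p = 2e-11). ACTG2, another smooth-muscle actin, fell in 5 protocols and rose only in TL-CDK8i cells among the 7 (1.62 ± 0.14, adjusted p = 3.4e-07). The summed level of the list lay at 3090 to 4052 CPM in primed, 8172 to 10253 in TL-CDK8i and 385 to 441 CPM in LCDM (EPS) cells.

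**Figure D5:**
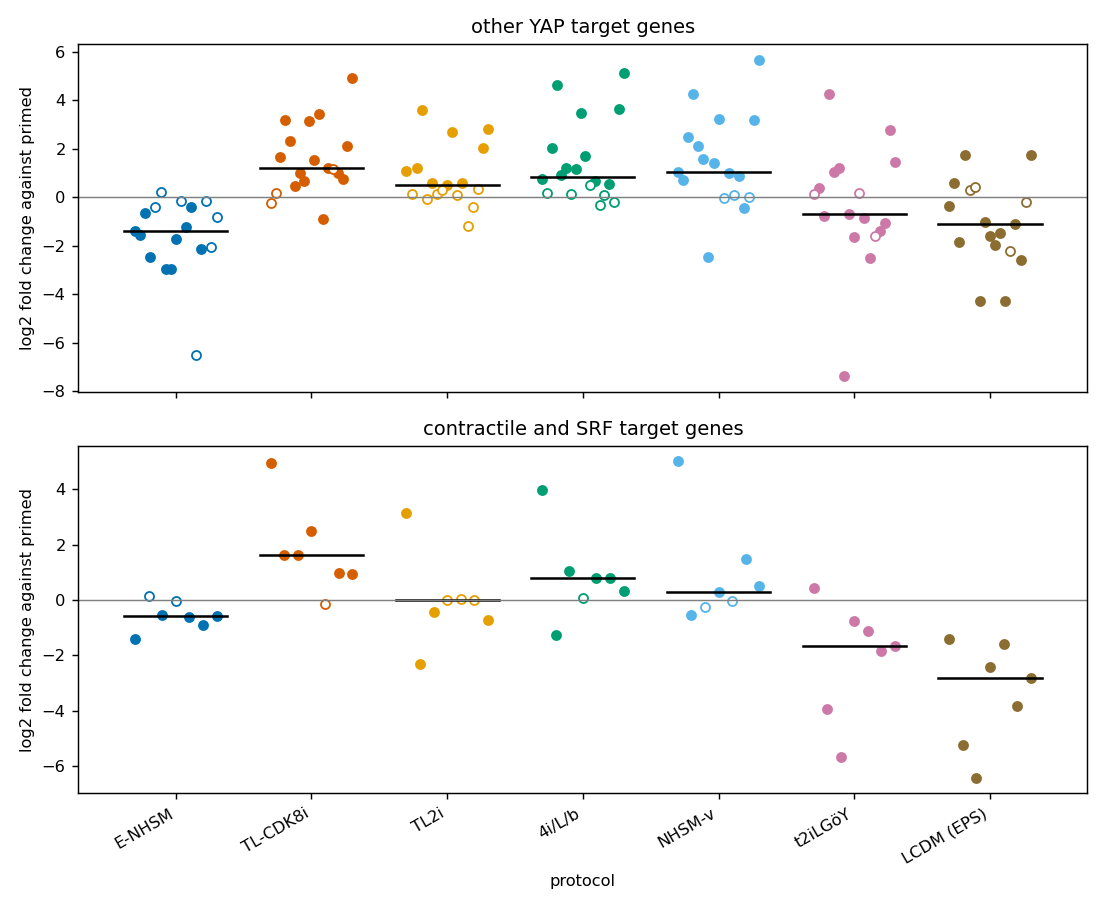
log2 fold change against primed cells of each tested gene of the list of other YAP target genes (upper panel) and of the contractile list (lower panel), by protocol. Filled points passed the test, open points did not, and lines are medians. Medians of the upper panel run from −1.37 in E-NHSM to 1.21 in TL-CDK8i cells, and in the lower panel all 7 genes of LCDM (EPS) cells lie under 0.

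Markers of other cell types moved with some of these groups. The summed level of 9 fibroblast markers was 1139 to 2423 CPM in primed cells, 11604 to 15074 in 4i/L/b, 8706 to 11240 in TL-CDK8i, 7863 to 8383 in NHSM-v and 2954 to 5741 in TL2i cells. COL1A1, which encodes a chain of collagen I, was the largest term in 4i/L/b and TL-CDK8i cells, at 9226 ± 1217 and 7375 ± 1023 CPM. LUM and DCN, further fibroblast markers, had 0 counts in primed, E-NHSM and t2iLGöY libraries and reached 46.7 ± 14.9 and 41.3 ± 13.3 CPM in 4i/L/b cells. By count, 7 of the 9 markers rose and 1 fell in 4i/L/b cells (26.6% and 29% of all genes tested). In TL2i cells 6 rose and 1 fell (25.6% and 25.2%). In TL-CDK8i and NHSM-v cells 6 rose (22.3% and 28%) and 3 were not called. THY1 fell in 5 protocols and rose in 1. E-NHSM cells had 455 to 493 CPM of the fibroblast list and LCDM (EPS) cells 776 to 1013. The 3 groups with the highest sums are those in which WWTR1 was highest. In t2iLGöY cells, with low CTGF and CYR61 and 0 counts of ANKRD1, the sum was 3431 to 4036 CPM, above the primed range. There 3 of 7 tested markers were higher (COL1A1, COL3A1 and PDGFRB), THY1 and COL1A2 lower and 2 not called. Of all genes tested, 27.1% rose and 27.2% fell in t2iLGöY cells. Neural markers summed to 2336 to 2651 CPM in primed, 3740 to 4064 in t2iLGöY and 6185 to 6413 in LCDM (EPS) cells, the 2 groups with the lowest target genes. All 7 rose in LCDM (EPS) cells (28.2% of all genes tested), with a median log2 fold change of 6.11. In t2iLGöY cells 6 of 7 rose and 1 fell (27.1% and 27.2%), with a median of 6.08. The same counts held in NHSM-v cells (28% and 30.6%), with a median of 4.80 and a sum of 2992 to 3036 CPM. In TL2i and 4i/L/b cells 4 of 6 rose (25.6% and 26.6%). E-NHSM cells had 1 of 5 higher and 1 lower (11.1% and 15.1%), and TL-CDK8i cells 2 of 5 higher and 1 lower (22.3% and 23.8%). Cardiac markers, named because ANKRD1 is a gene of cardiac muscle, summed to 4.91 to 13.6 CPM in primed cells and were highest in TL-CDK8i cells, where ANKRD1 was highest too, at 31.03 to 38.1 CPM. There TNNT2 and NKX2-5 rose, 2 of the 3 tested, where 22.3% of all genes tested rose. They reached 16.1 ± 1.17 and 6.94 ± 3.17 CPM (adjusted p = 2e-04 and 0.00014). Trophoblast markers, named here because TEAD4 serves that lineage, summed to 3.59 to 14.7 CPM in primed, 109 to 112 in TL2i, 111 to 163 in t2iLGöY, 150 to 236 in TL-CDK8i and 173 to 189 in LCDM (EPS) cells. Most of this sum was KRT7 in TL-CDK8i cells, at 162 ± 49.7 CPM, and TFAP2A in LCDM (EPS) and t2iLGöY cells, at 181 ± 8.53 and 134 ± 26.6 CPM. In both of the latter groups 3 of the 7 markers were tested, and TFAP2A rose, KRT7 fell and GATA3 did not pass. In TL2i cells 4 of 6 tested markers rose and 0 fell (25.6% and 25.2% of all genes tested), with a median log2 fold change of 3.87. CDX2 was tested only there, and rose. In TL-CDK8i cells 2 of 5 rose (22.3%) and in NHSM-v cells 1 of 3 (28%). In 4i/L/b cells 1 of 2 fell (29%) and in E-NHSM cells 2 of 4 (15.1%). The part of these cell types in the levels of the Hippo genes was not tested.

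Over the 27 libraries, which share groups and hence are not independent, the genes most like each member were found by Pearson's r of log2 CPM among 9914 genes. For CTGF these were WEE1 (r = 0.982), ZYX (0.960) and DUSP6 (0.949), and for CYR61 they were ZYX (0.982), TNFRSF12A (0.962) and CNN1 (0.941). ANKRD1 was most like FHL2 (0.954), PLAU (0.952) and FLNC (0.949), and TEAD3 most like VCL (0.974), LRP1 (0.962) and CALD1 (0.956). TEAD4 was most like BUB1, ZMYND8 and PA2G4 (0.922 to 0.931), WWTR1 most like ANXA5, KLF6 and C15H9orf3 (0.898 to 0.924) and YAP1 most like SCFD1, MARCH7 and CWC22 (0.879 to 0.900). TEAD1 was most like PACSIN2, LIMK2 and GTF3C1 (0.869 to 0.876) and TEAD2 most like FAM13B, CCNL2 and ZNF93 (0.907 to 0.918). Within the members, CTGF and CYR61 had an r of 0.940, and TEAD3 had 0.913 with CYR61, 0.883 with ANKRD1 and 0.856 with CTGF. YAP1 had 0.231 with CTGF and −0.284 with WWTR1.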

How the data were processed

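Bulk RNA-seq counts of 27 libraries were used, with groups taken from the labels. The values are whole-number counts, 1 row per gene symbol, which the authors obtained from single reads of strand-specific poly(A) libraries. The submitters' processing notes name bcl2fastq, cutadapt, HISAT2 and HTSeq. Versions, genome build and annotation are not given in the sources used here. The study's test is not given in the sources used here. Columns of primed cells were assigned to the group only.

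With R 4.3.3 and edgeR 4.0.16, each pair of groups was fitted by the quasi-likelihood test, with TMM, filterByExpr, and Benjamini-Hochberg adjustment over all genes tested (threshold 0.05). CPM used TMM factors over all libraries. Log2 count ratios (0.5 added) went into exact permutation tests, which were two-sided. The procedure was tested on simulated data. With 6 libraries against 3 it recovered 82.7% of changes of 2 on the log2 scale and 64.9% of changes of 1. Of its calls 3.4% were false. With 3 libraries against 3 in one fit of 8 groups these values were 72.6%, 52% and 2.44%. Changes of this size or smaller can therefore be missed. Counts range from 7111886 to 20760914 per library, and the 36 same-group pairs differed beyond sampling noise (chi-square per gene 3.98 to 29.8).

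The members and gene lists (107 of 109 symbols found) were chosen with earlier results of these data known. Named are all members, from each list the 2 genes called higher and the 2 called lower in most protocols (more where a count needed it), and the 3 genes most like each member (prior count 2, mean log2 CPM of at least 3). Alternatives were DESeq2 1.42.0, upper-quartile scaling, no filter, one fit of all groups, single libraries left out, the replicate block, and primed J or K alone. The comparison of K with J and the recount of both target lists were added after seeing the data.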

Additional observations from a re-analysis of the deposited data

Results flagged for a closer look

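Among 14 quantities tested for a library that stands apart from its group of 6 primed libraries, 1 passed Dixon's test at the 95% level. It was the share of TEAD4 in the reads of the 4 TEAD genes, which was 13.2% in J3 and lay between 8.60% and 9.94% in the other primed libraries (its gap to the nearest library was 0.709 of the range). Chance flags about 1 such group in 20. The next highest gaps were those of the TEAD1 share (0.619) and of ANKRD1 (0.594), which did not pass.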

How the results depend on the processing

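The number of members called in each comparison stayed within 1.5 times under DESeq2, upper-quartile scaling, no filter, one fit of all groups, primed J or K alone, and each library left out, and so did the 26 neighbouring groups that differed (24 to 28). Of the 49 calls against primed cells, 40 held whichever library was left out and 9 did not, each named above. Directions turned in 3 cases, none of them called with all libraries: YAP1 in E-NHSM cells against J alone (0.0394 in place of −0.16), CYR61 in TL-CDK8i cells against K alone (0.24 in place of −0.15) and TEAD1 in TL2i cells against K alone (−0.0441 in place of 0.05). The WWTR1 to YAP1 ratio lost its call without single libraries in E-NHSM (−0.40 to −0.31) and LCDM (EPS) cells (0.21 to 0.30), and was not changed by adding 2 in place of 0.5. Counts of the other YAP target genes ranged from 11 to 15 higher in TL-CDK8i, 6 to 12 higher in TL2i and 8 to 14 lower in E-NHSM cells, and those of small size moved by over 1.5 times: 3 higher in LCDM (EPS) cells became 5 in one fit of all groups, 2 lower in NHSM-v cells ranged from 1 to 3, and the 1 contractile gene higher in t2iLGöY cells, ACTA2, lost its call in 8 settings, J and K alone among them. With TL-CDK8i and TL2i libraries of the same number as a replicate block, all 9 members were called, as without it. The correlations of same-numbered deviations were −0.145, −0.0305 and −0.00473, and those of different numbers lay between −0.115 and 0.128. No pairing by number was seen, but so few correlations cannot decide whether the numbers pair these libraries. No paired analysis was possible because of the letters J and K for comparisons with primed cells or for neighbouring groups, although it was planned. Levels near the floor, as those of ANKRD1 in LCDM (EPS) and t2iLGöY cells, are limited by depth.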
